A study of Homo sapiens with 20 samples.

Results

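Isolated RUNX1 peaks are regions of RUNX1 binding that had no near neighbor: a peak was counted as isolated when more than 150000 bp lay between it and every other peak of its chromosome. Of the 26642 peaks of the RUNX1 count table, 1483 (5.57%) met this rule, and the other 25159 are called the remaining peaks. The rule used positions only and no read count, but the peaks had been called on the libraries compared here. The gap to the nearest other peak had a median of 244400 bp among the isolated peaks and reached 3929739 bp, against a median of 13540 bp among the remaining peaks.

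RUNX1 was measured by chromatin immunoprecipitation with sequencing (ChIP-seq) in THP-1, an established human monocytic leukemia cell line. The control libraries (n = 6) came from THP-1 cells that carried a scramble shRNA, and the knockdown libraries (n = 6) came from THP-1 cells that carried an shRNA against the transcription factor PU.1. Both cassettes were inducible, and doxycycline was added to both genotypes, so all groups were drug-treated derivatives of 1 cell line. The replicates were repeated immunoprecipitations and library preparations of this line in 2 batches, with 3 control and 2 knockdown libraries in batch 1 and 3 control and 4 knockdown libraries in batch 2, and the p-values therefore measure the spread between such repeats. The assay does not measure PU.1 or the marker genes of the cell line, so neither the knockdown nor the identity of the cells could be checked in these libraries.

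RUNX1 is a transcription factor of the blood lineages that binds DNA together with its partner CBFβ, and it is required for the formation of hematopoietic stem cells. PU.1 is an ETS-family transcription factor that opens chromatin in myeloid cells and shares many binding sites with RUNX1 there. RUNX1 sites often lie in groups around genes of the lineage, and an isolated peak is a site outside such a group.

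The isolated peaks lay in gene-poor surroundings. The nearest end of a protein-coding gene was at a median of 84260 bp from an isolated peak and 11640 bp from a remaining peak. A median of 3 protein-coding genes lay within 500 kb of an isolated peak, against 10 for the remaining peaks. Within 1 kb of a gene end were 273 isolated peaks (18.4%, against 24.7% of the remaining peaks), and 687 (46.3%, against 62.8%) lay inside a protein-coding gene. No gene of any kind in the RefSeq table overlapped 564 isolated peaks (38.0%, against 25.3%). They were also weaker and narrower. Their mean normalized count per library, which is the read count divided by the size factor of the library, had a median of 25.7 against 31.5, and their width a median of 727 bp against 900 bp. The share of a chromosome's peaks that were isolated ran from 0.409% on chromosome 19 to 14.4% on chromosome X, with 26.1% of the 46 peaks of chromosome Y. These shares describe the 2 sets and were not tested.

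A small group of isolated peaks lay over promoters, and their sequences are the regulatory DNA that this group can be read against. Promoters are taken here as the 250 bases before the RefSeq start of a protein-coding gene. On the chromosomes with promoter sequences, 230 isolated peaks overlapped 322 promoters. The upstream sequences of 5 of them are printed 5′ to 3′ on the strand of the gene, from RefSeq on GRCh38.p14, with RUNX core motifs (TGTGGT) and ETS core motifs (GGAAGT) of either strand in capitals. RGS18 is shown for its pair of RUNX cores, LCE3A and IDH3B as promoters under strongly lost peaks, and SLC9B1 and AGXT as promoters under gained peaks. The peak at LCE3A ends at chr1:152623214, inside the printed sequence, so the 5′ part of that sequence lies outside the peak. RGS18 lies at chr1:192158212-192158461 on the plus strand, LCE3A at chr1:152623104-152623353 on the minus strand, IDH3B at chr20:2664217-2664466 on the minus strand, SLC9B1 at chr4:103019706-103019955 on the minus strand and AGXT at chr2:240868574-240868823 on the plus strand.
RGS18: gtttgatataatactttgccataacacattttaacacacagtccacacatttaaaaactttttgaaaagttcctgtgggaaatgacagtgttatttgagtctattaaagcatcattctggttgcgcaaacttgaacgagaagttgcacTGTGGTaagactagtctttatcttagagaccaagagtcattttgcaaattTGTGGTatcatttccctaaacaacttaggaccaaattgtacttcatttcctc
LCE3A: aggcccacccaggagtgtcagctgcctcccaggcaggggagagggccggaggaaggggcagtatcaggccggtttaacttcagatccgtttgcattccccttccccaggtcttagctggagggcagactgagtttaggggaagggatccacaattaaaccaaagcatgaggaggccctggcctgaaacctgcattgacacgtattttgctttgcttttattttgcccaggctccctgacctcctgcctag
IDH3B: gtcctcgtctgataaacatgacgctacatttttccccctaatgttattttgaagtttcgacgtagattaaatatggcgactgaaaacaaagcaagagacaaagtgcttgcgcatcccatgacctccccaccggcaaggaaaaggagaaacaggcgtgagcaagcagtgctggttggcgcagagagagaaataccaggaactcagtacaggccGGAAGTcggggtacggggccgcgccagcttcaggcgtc
SLC9B1: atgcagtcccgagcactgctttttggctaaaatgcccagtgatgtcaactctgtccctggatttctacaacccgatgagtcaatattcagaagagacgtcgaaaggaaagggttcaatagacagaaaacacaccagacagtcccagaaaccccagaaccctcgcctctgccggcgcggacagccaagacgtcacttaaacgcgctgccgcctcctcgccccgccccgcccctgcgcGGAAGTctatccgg
AGXT: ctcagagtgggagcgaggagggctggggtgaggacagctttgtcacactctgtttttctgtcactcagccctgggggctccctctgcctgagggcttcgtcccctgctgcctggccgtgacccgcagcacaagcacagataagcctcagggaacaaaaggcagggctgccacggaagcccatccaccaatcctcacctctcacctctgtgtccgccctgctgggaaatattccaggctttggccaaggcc

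The RUNX core was present in 22 of the 322 promoters under isolated peaks (6.83%), in 9.77% of 6395 promoters under remaining peaks and in 9.36% of all 22199 promoters of this length. The ETS core was present in 28.3%, 27.7% and 20.5%. Both strands were searched, matches of the 2 motifs can share at most 1 end letter, and a match describes letters only. A gene can have several such promoters, and promoters on opposite strands can share bases, so the promoters are not independent sequences. The sequence of peaks away from promoters was not used here.

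Knockdown of PU.1 was accompanied by changed RUNX1 binding at many isolated peaks, and losses outnumbered gains. A peak was called at a Benjamini-Hochberg adjusted p under 0.05 over all 26642 peaks and a fitted fold change over 1.1 (DESeq2, with batch in the model). Of the 1483 isolated peaks, 684 (46.1%) were called, beside 42.0% of all peaks. Gained were 288 isolated peaks (19.4%), beside 21.3% of all peaks, and lost were 396 (26.7%), beside 20.7%. Of the called isolated peaks 57.9% were losses, against 48.8% of the called remaining peaks. The separation was wider for large changes: 233 isolated peaks (15.7%) were lost by more than 2-fold, beside 8.2% of all peaks, whereas 134 (9.04%) were gained by more than 2-fold, beside 8.86%. Lost isolated peaks had a median log2 fold change of -1.14 and gained isolated peaks one of 0.96, against -0.83 and 0.91 in the remaining peaks. In level, the lost isolated peaks had a median of 31.8 for their control means and of 13.8 for their knockdown means, in normalized counts. The gained isolated peaks had medians of 14.8 and 31.2. The median log2 fold change of all isolated peaks was -0.05, against -0.02 in the remaining peaks, on a scale that the size factors center near 0. When at least 10 reads were required in every library, which drops peaks that are low in 1 genotype, the shares of the 844 isolated peaks left lay closer to those of all 18255 peaks left: 120 were gained (14.2%, beside 16.5%), 150 lost (17.8%, beside 15.7%) and 44 lost by more than 2-fold (5.21%, beside 3.53%). The rule used the positions of peaks and no read count, but the peaks themselves had been called on the libraries compared here. A weak peak can therefore stand in the table through the genotype where it is high. Differences of these shares between the sets are descriptions, since peaks of the same libraries are not replicates.

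The share of lost peaks was higher at wide gaps than at narrow ones. It was 18.2% among 2155 peaks with a neighbor within 1 kb, 22.1% among 4170 peaks with a gap of 50 to 150 kb, 27.4% among 776 isolated peaks with a gap of 150 to 250 kb, 26.9% among 491 with a gap of 250 to 500 kb and 23.6% among 216 with a gap over 500 kb. For losses over 2-fold, the order was unbroken, from 5.1% in the closest class to 17.6% in the most distant one. The share of gained peaks stayed between 18.6% and 23.1% over all 8 classes. Gains over 2-fold were also more frequent at the far end, with 5.94% in the closest class and 12.5% in the most distant one. Their order was uneven, with 7.35% at 150 to 250 kb. Median strength and width fell along the same classes, from 34.1 normalized counts and 987 bp to 21.8 and 658.5 bp, and their part in the order was not tested here.

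**Figure D1:**
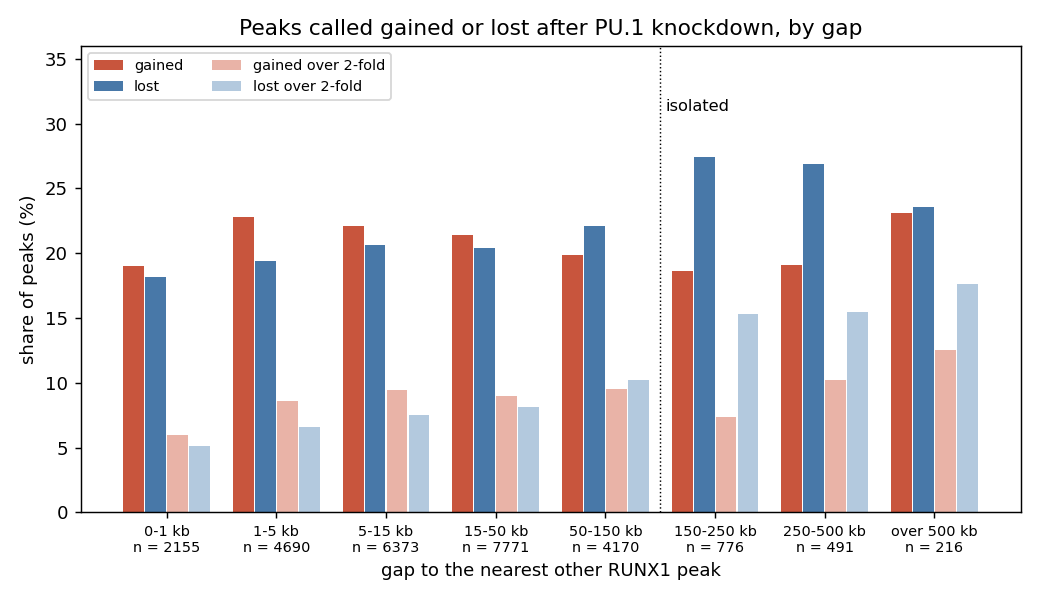
Share of RUNX1 peaks called gained or lost (y axis, %) by the gap to the nearest other peak (x axis, number of peaks under each class), for all calls and for calls over 2-fold; classes right of the dotted line are the isolated peaks. Lost shares are 18.2% in the closest class and 27.4% at 150 to 250 kb. Losses over 2-fold are 5.1% in the closest and 17.6% in the most distant class, and gains over 2-fold are 5.94% and 12.5%.

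The 2 batches share no library, and each was fitted alone. The log2 fold change had the same sign in both for 1194 isolated peaks (80.5%), beside 80.0% of all peaks. Batch 1 gave 66 gained (4.45%, beside 5.38% of all peaks) and 172 lost isolated peaks (11.6%, beside 6.61%). Batch 2 gave 177 gained (11.9%, beside 12.8%) and 271 lost (18.3%, beside 13.1%). Of the isolated peaks, 218 (14.7%) were called in both batches, beside 10.4% of all peaks, and in both sets every such peak had the same sign in both batches. Across the 1483 isolated peaks, the values of both batches had a Pearson correlation of 0.892 and a Spearman correlation of 0.86 (0.859 and 0.818 across all peaks), given as a description across peaks that share their libraries within each batch. A test of the product of genotype and batch called 0 isolated peaks with DESeq2 and 0 with edgeR, while 27 (1.82%, beside 2.51% of all peaks) had an unadjusted DESeq2 p under 0.05. The batch 1 count rests on few libraries: of its 238 calls in all, 17 were left without knockdown replicate 2, 33 without knockdown replicate 1, 97 without control replicate 3 and 108 without control replicate 2, and edgeR gave 470.

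**Figure D2:**
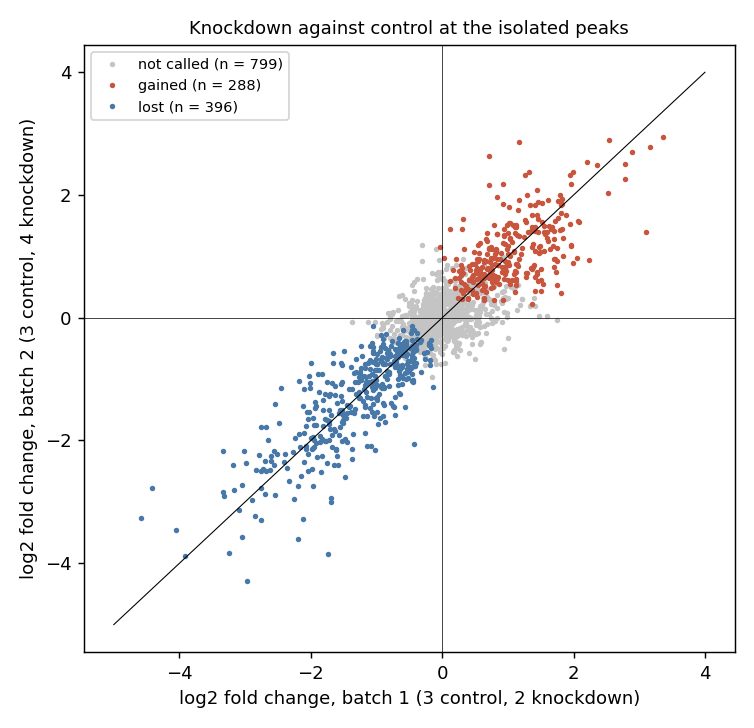
Log2 fold change, knockdown against control, of the 1483 isolated peaks in batch 1 (x axis) and batch 2 (y axis), each fitted alone; colors give the calls over both batches and the line marks equal values. Gained (n = 288) and lost peaks (n = 396) lie along the line, and the largest losses reach -4.59 in batch 1 and -4.30 in batch 2.

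Counted without a model, 292 isolated peaks (19.7%) had every knockdown library below every control library of its batch, beside 13.9% of all peaks, and 208 (14.0%) had every knockdown library above, beside 14.4%. These counts use the normalized counts alone. Peaks of a large chromosome region can move together, so each fold change was also set against the median of the other peaks within 5 Mb on either side. After this centering, 299 isolated peaks were gained (20.2%, beside 22.0% of all peaks), 394 were lost (26.6%, beside 19.5%) and 218 were lost by more than 2-fold (14.7%, beside 7.86%). By chromosome, the isolated peaks of chromosomes 11 and 18 were lost most often among those with at least 30 isolated peaks, with 31 of 62 and 16 of 32 lost. The remaining peaks of these 2 chromosomes were lost in 32.5% and 25.2%.

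Because isolated peaks were weaker, they were compared with remaining peaks of like strength. Among the weakest quartile of all peaks, 30.7% of 535 isolated peaks and 19.2% of 6126 remaining peaks were lost, and 23.0% and 30.1% were gained. In the next quartiles the lost shares were 26.1% against 20.6% and 25.9% against 21.6%. In the strongest quartile, 43 of 220 isolated peaks (19.5%) and 1286 of 6441 remaining peaks were lost. The lost share of isolated peaks was above that of the remaining peaks in the 3 weaker quartiles and not in the strongest one. In the strongest quartile, gained were 20.5% of isolated and 17.9% of remaining peaks, and lost over 2-fold were 3.18% and 2.1%. These differences were not tested. By width, 28.2% of the narrowest isolated peaks (up to 666 bp) were lost against 17.5% of the remaining peaks of this width, and in the widest quartile the shares were 21.0% and 22.4%.

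Distance to genes split the isolated peaks further. Of the 273 isolated peaks within 1 kb of a gene end, 9 (3.3%) were gained and 50 (18.3%) lost. Losses over 2-fold numbered 7 (2.56%). Remaining peaks at this distance showed 6.32% gained, 19.0% lost and 1.72% lost by more than 2-fold. Of the 578 isolated peaks more than 150 kb from any gene end, 134 (23.2%) were gained and 172 (29.8%) lost. Among the losses, 108 (18.7% of the 578) exceeded 2-fold. Here the remaining peaks showed 25.6% gained, 26.1% lost and 13.5% lost by more than 2-fold. At 10 to 50 kb the lost shares were 29.0% of 248 isolated and 20.7% of 7924 remaining peaks. Isolated peaks between genes were lost in 28.6% of 796 and those inside a gene in 24.5% of 687, against 20.9% and 20.1% of the remaining peaks in these places. The isolated peaks near gene ends were the wide and strong ones (median 1243 bp and 39.2 normalized counts, against 649.5 bp and 22.1 beyond 150 kb), so distance, width and strength cannot be told apart in these shares.

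**Figure D3:**
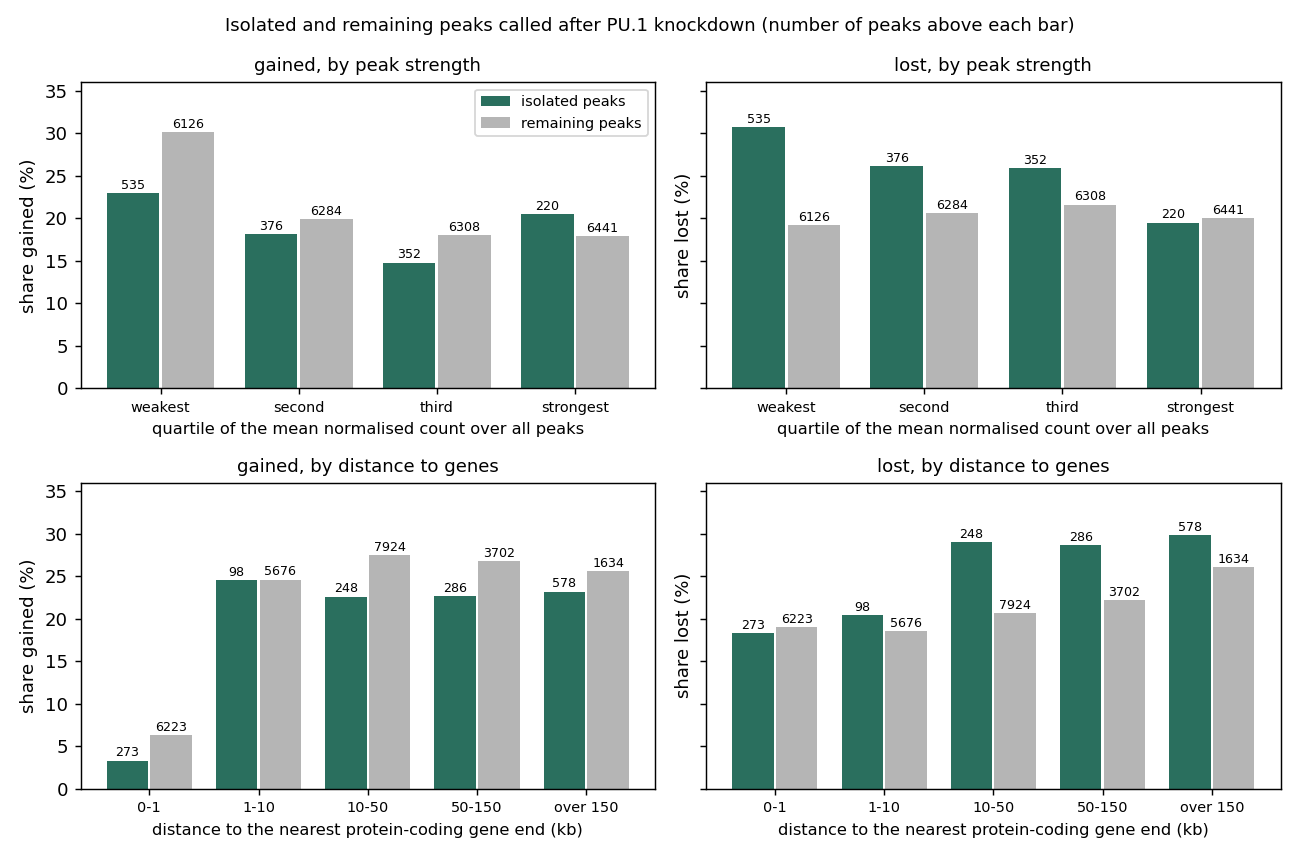
Share of isolated (green) and remaining (gray) peaks called gained (left) or lost (right), by quartile of the mean normalized count (top) and by distance to the nearest protein-coding gene end in kb (bottom), with the number of peaks above each bar. In the weakest quartile 30.7% of isolated and 19.2% of remaining peaks were lost, and in the strongest quartile the bars differ little.

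The share of a library's in-peak reads that fell in isolated peaks was lower in knockdown libraries. It was 4.52% ± 0.0964 in control (SD, n = 6) and 4.34% ± 0.0637 in knockdown libraries (SD, n = 6). In batch 1 the control libraries held 4.36%, 4.63% and 4.57% and the knockdown libraries 4.27% and 4.28%. In batch 2 the controls lay between 4.46% and 4.56% and the knockdown libraries between 4.33% and 4.42%. The genotypes did not overlap within either batch, which is given as a description with no test. Isolated peaks within 1 kb of a gene end held 1.21% ± 0.0943 in control and 1.08% ± 0.0619 in knockdown libraries (SD, n = 6 each), again without overlap within a batch. A lower level at this distance was not particular to isolated peaks: the median log2 fold change was -0.16 for isolated and -0.17 for remaining peaks. Isolated peaks farther from gene ends held 3.31% ± 0.164 and 3.26% ± 0.123, and here the genotypes overlapped in both batches. Control replicate 1 stood apart from the other controls, with the highest share near gene ends (1.38%) and the lowest away from them (2.98%). In-peak reads numbered 630247 to 1199004 in control and 938745 to 1719840 in knockdown libraries, and a median isolated peak received 16 to 29 and 21 to 38 reads, so single weak peaks carried substantial counting error.

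**Figure D4:**
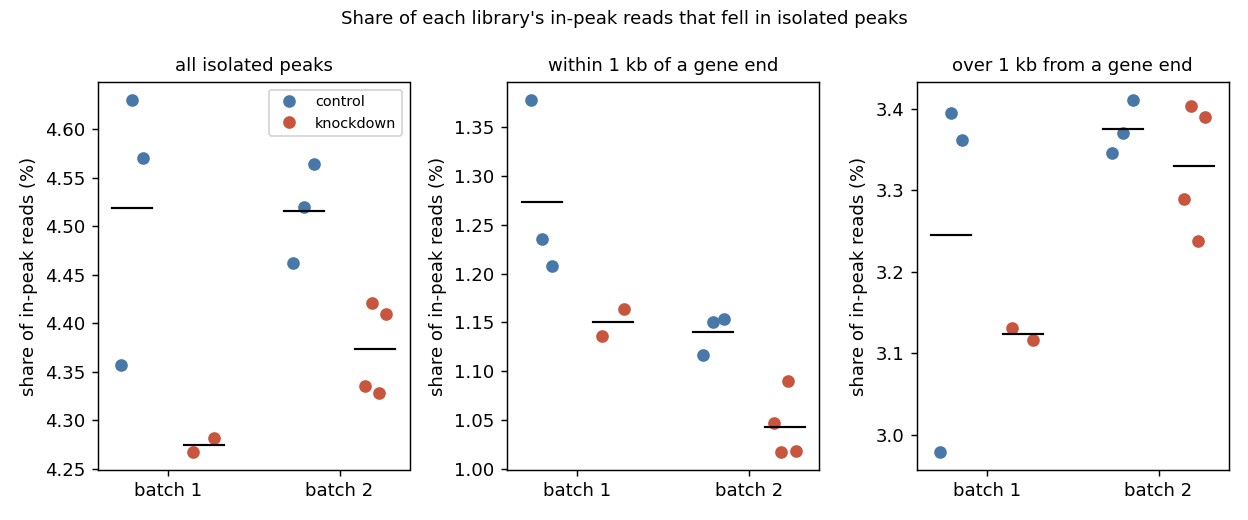
Share of each library's in-peak reads (y axis, %, not starting at 0) in all isolated peaks, in those within 1 kb of a gene end and in those farther away, by batch; points are libraries, blue for control and red for knockdown, and bars are means. Knockdown libraries lie below the controls of their batch in the first 2 panels and overlap with them in the third.

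Individual isolated peaks are named by the protein-coding gene with the nearest end, which says nothing on whether the site acts on that gene. Near means nearest and sets no distance: the named peaks lay up to 1543273 bp from that end. The 8 largest losses among called peaks with a mean normalized count of at least 20 and no overlap of the genotypes within a batch went from intermediate counts in control cells to a few normalized counts. The peak at chr15:25793163-25793946 inside ATP10A, a phospholipid flippase, had 31.2 to 60.5 normalized counts in control libraries (median 34.3) and 0 to 7.31 in knockdown libraries (median 2.44). Every knockdown library lay below every control library, with 0 reads in knockdown replicate 3 and the highest control value in replicate 2. The log2 fold change was -3.64 ± 0.39 (SE), a 12.4-fold lower level (DESeq2, adjusted p = 1.41e-18).

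Several of these losses had a gene for a developmental transcription factor as their nearest gene, in part at large distances. Near SALL3, a zinc finger factor of the spalt family, the peak at chr18:78169280-78169941 had 34.8 to 46.1 normalized counts in control (median 41.8) and 1.83 to 7.24 in knockdown libraries (median 4.45), and it was lost at -3.12 ± 0.31 on the log2 scale (DESeq2, adjusted p = 8.9e-22). This site lay 809877 bp from the nearest gene end, with no protein-coding gene within 500 kb. Inside BARX2, a homeobox gene, the peak at chr11:129430300-129430975 had 23.0 to 57.2 (median 37.0) in control and 0.932 to 8.59 (median 3.69) in knockdown libraries, and its log2 fold change was -3.10 ± 0.34. Nearest to NR2F2, which encodes the orphan nuclear receptor COUP-TFII, but 878611 bp from its end, was the peak at chr15:95446826-95447435. It had 40.3 to 74.8 (median 55.0) and 4.57 to 11.9 (median 5.01), with a log2 fold change of -3.04 ± 0.27. In these 3 the genotypes did not overlap, as the choice required within a batch, and the log2 fold changes within a batch ran from -3.32 to -2.76. The peak near TEAD1, the Hippo pathway transcription factor, went from a median of 34.0 to 5.84 normalized counts (log2 fold change -2.58 ± 0.30).

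Of the other large losses, the peak inside PTPRD, a receptor tyrosine phosphatase, had a log2 fold change of -2.86 ± 0.29, that near IPO5, a nuclear import receptor, 98682 bp from the nearest gene end, one of -2.76 ± 0.28, and that inside CMKLR1, the receptor for chemerin on myeloid cells, one of -2.49 ± 0.28. At CMKLR1 (chr12:108332567-108333513) control libraries held 25.8 to 52.1 normalized counts and knockdown libraries 4.57 to 8.59. The genotypes did not overlap at any of the 3, as the choice required within a batch.

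The 8 largest gains were chosen by the same rule, with no overlap of the genotypes within a batch. Most of them started from low counts in control cells. The peak at chr6:70914476-70915355, inside the glucuronyltransferase gene B3GAT2 and nearest to an end of LOC124901229, had 4.69 to 12.1 normalized counts in control (median 8.44) and 34.4 to 73.3 in knockdown libraries (median 52.5). Its log2 fold change was 2.71 ± 0.29, a 6.55-fold higher level (DESeq2, adjusted p = 3.28e-18). The peak at chr2:95774160-95775570 near LOC128966744 was the strongest of the gains, with 22.1 to 31.2 in control (median 27.2) and 103 to 163 in knockdown libraries (median 121), and was gained by 2.26 ± 0.17 on the log2 scale (DESeq2, adjusted p = 2.11e-35). Both sites also separated the genotypes across the batches, which the choice did not require. The peak inside the zinc finger gene ZNF469, 547 bp from a gene end at chr16:88439536-88440206, had 4.21 to 13.9 in control (median 9.20) and 38.2 to 49.3 in knockdown libraries (median 42.2), with a log2 fold change of 2.35 ± 0.28.

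The other 5 gains had log2 fold changes between 1.77 and 2.12. They lay near PLOD2 (2.12 ± 0.28), a collagen lysyl hydroxylase, near YTHDC1 (1.84 ± 0.28), a nuclear reader of methylated adenosine in RNA, near NUDT12 (1.84 ± 0.19), inside GPC6 (1.80 ± 0.26), a glypican of the cell surface, and inside RHOBTB1 (1.77 ± 0.25). The site near NUDT12 (chr5:104034747-104035494), 471958 bp from the nearest gene end, was the most even of them, with 16.9 to 21.1 normalized counts in control (median 19.8) and 62.9 to 81.0 in knockdown libraries (median 69.2). The genotypes were again separate at these sites, as the choice required within a batch.

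**Figure D5:**
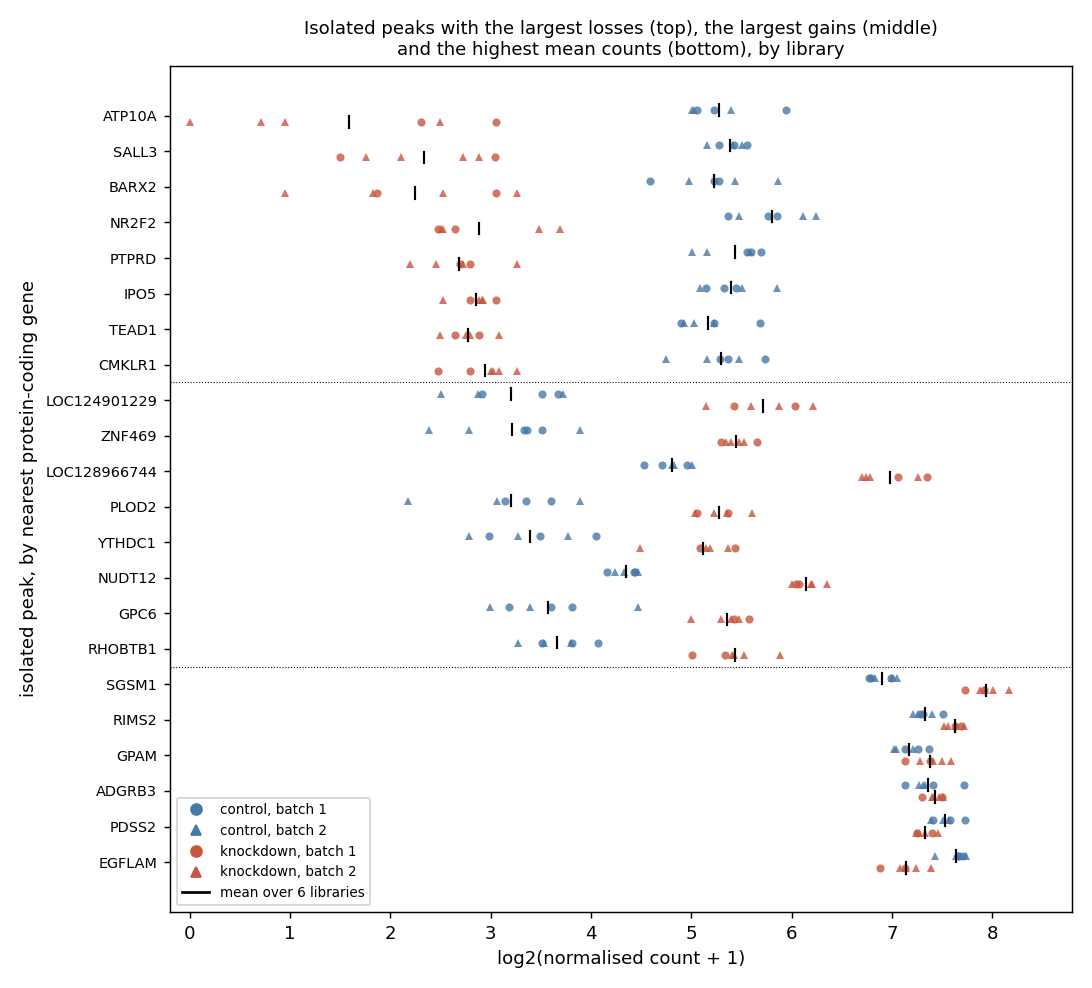
Normalized counts of 22 isolated peaks on the scale log2(normalized count + 1) (x axis), by nearest protein-coding gene (y axis): the 8 largest losses, the 8 largest gains and the 6 strongest peaks. Each point is a library (circles batch 1, triangles batch 2; blue control, red knockdown), vertical bars are means of the plotted values over 6 libraries. The losses and gains were chosen to have no overlap of the genotypes within a batch, and the strongest peaks were not. Of the strongest peaks, GPAM, ADGRB3 and PDSS2 overlap.

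Of the 6 isolated peaks with the highest mean count, 3 were called. The peak inside SGSM1, a modulator of small G proteins, at chr22:24871191-24872704 had 108 to 132 normalized counts in control (median 119) and 211 to 286 in knockdown libraries (median 242). The genotypes did not overlap, and the gain was 1.01 ± 0.10 on the log2 scale (DESeq2, adjusted p = 8.61e-23). The peak inside EGFLAM, which encodes an extracellular matrix protein of the retina, at chr5:38453269-38454135 had 172 to 212 (median 202) and 116 to 166 (median 139) and fell, at -0.53 ± 0.10 (DESeq2, adjusted p = 7.82e-07). The peak inside RIMS2, a protein of the presynaptic active zone, had 147 to 182 (median 156) and 183 to 210 (median 198), and it was gained at 0.30 ± 0.09, again without overlap. After centering on the window, the log2 fold changes were 1.08 inside SGSM1, -0.24 inside EGFLAM and 0.40 inside RIMS2. The peaks over PDSS2, an enzyme of coenzyme Q synthesis (-0.19 ± 0.09), in GPAM, a glycerol-3-phosphate acyltransferase of mitochondria (0.20 ± 0.11), and near ADGRB3, an adhesion G protein-coupled receptor (0.06 ± 0.10), did not pass the test, and their genotypes overlapped.

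The 4 peaks with the widest gaps showed no common direction. The peak near CNTNAP3C at chr9:61542496-61543284, with the gap of 3929739 bp, had 39.0 to 54.9 normalized counts in control and 50.7 to 91.4 in knockdown libraries and was not called (log2 fold change 0.29 ± 0.17; DESeq2, adjusted p = 0.16). Near LOC105372073 on chromosome 18 (gap 2404579 bp) binding fell from a median of 32.2 to 6.16, at -2.42 ± 0.33, and near CHORDC1, a chaperone-binding protein, on chromosome 11 (gap 2118636 bp) from 18.9 to 3.64, at -2.54 ± 0.39. The peak near NLGN4Y (gap 2525851 bp) was gained at 0.86 ± 0.29, a call that was lost without knockdown replicate 2 and after centering on its window, where the value was -0.57. Near the 150000 bp limit, the 3 peaks just inside it (near PTER, SEC23IP and LOC105373146, with gaps of 150006 to 150026 bp) had log2 fold changes of 0.07, -0.26 and 0.31, and the 3 just outside (near CTNNA3, MELK and FBN2, with gaps of 149856 to 149932 bp) had 1.23, -1.60 and 0.40.

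Of the 230 isolated peaks over promoters, 40 (17.4%) were lost and 4 (1.74%) gained, over 55 and 4 promoters. The 4624 remaining peaks over promoters showed nearly the same split, with 18.4% lost and 3.05% gained. The upstream sequence of RGS18, a regulator of G protein signaling in blood cells, holds RUNX cores that begin 102 and 52 bases before the start of the gene, and the peak over it (chr1:192158054-192158650) had 26.0 to 44.5 normalized counts in control (median 33.4) and 9.88 to 28.9 in knockdown libraries (median 19.1). Its ranges overlapped over both batches, and the log2 fold change was -0.92 ± 0.23 (DESeq2, adjusted p = 0.000331). LCE3A, a gene of the cornified envelope of skin with neither core in the window, had the largest promoter loss among peaks with a mean count of at least 20, with 42.8 to 59.0 in control (median 45.6), 3.56 to 15.8 in knockdown libraries (median 12.5) and a log2 fold change of -2.07 ± 0.24. The peak over IDH3B, a subunit of mitochondrial isocitrate dehydrogenase, with an ETS core 38 bases before the start, had 62.4 to 102 in control (median 76.2) and 28.9 to 45.3 in knockdown libraries (median 39.4), at -1.06 ± 0.16. Both separated the genotypes.

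Of the other named promoter losses, the peak over EIF3F, a subunit of a translation initiation factor, had a log2 fold change of -1.14 ± 0.24. The shared promoter of UCHL5 and RO60, with 1 RUNX and 1 ETS core, lay under a peak at -0.37 ± 0.13, a call lost when at least 10 reads were required in every library (-0.30). The RSF1 promoter, with a RUNX core next to an ETS core, lay under a peak at -0.48 ± 0.19 (DESeq2, adjusted p = 0.0361) that lost its call under 10 alternatives. Of the gained promoters, SLC9B1, a sodium-proton exchanger with an ETS core 14 bases before the start, had 53.8 to 100.5 normalized counts in control (median 84.0) and 118 to 141 in knockdown libraries (median 125), at 0.67 ± 0.12. AGXT, an aminotransferase of glyoxylate metabolism with neither core, had 29.9 to 44.5 (median 37.0) and 48.7 to 68.7 (median 55.9), at 0.64 ± 0.17. Neither overlapped between the genotypes. RUNDC3B (0.87 ± 0.30) and ATE1, an arginyltransferase (0.53 ± 0.19), were the other 2, and the RUNDC3B call was lost without control replicate 6. RUNX cores were present in 4 of the 55 promoters under lost isolated peaks (7.27%). They were present in 6.84% of those under uncalled isolated peaks and in 0 of the 4 under gained ones. The UCHL5 and RO60 promoters are nearly the same bases on opposite strands, so 1 core under 1 peak is counted in both.

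The isolated peaks were also counted by the gene lists that hold their nearest gene. Median distances to a gene end were 225496 bp for isolated and 27905 bp for remaining peaks of the myeloid and hematopoietic list. For the developmental list they were 117053 and 30844 bp. For adhesion, synapse and channel genes they were 292595 and 44651 bp, and for olfactory receptor genes 3837 and 10571 bp. The list of myeloid and hematopoietic genes held 18 isolated peaks, of which 8 were lost, 4 gained and 6 not called (median log2 fold change -0.50). Its 558 remaining peaks were lost in 27.4% and gained in 18.5%. The 3 lost and 3 gained sites with values here are the 6 called ones with most reads. Near GATA3, a transcription factor of T lymphocytes, the peak at chr10:8132904-8133687 had 50.3 to 84.3 normalized counts in control (median 59.3) and 10.96 to 19.8 in knockdown libraries (median 15.6), and the log2 fold change was -2.07 ± 0.21 (DESeq2, adjusted p = 1.01e-20). Inside TOX the medians were 68.5 and 12.8, at -2.42 ± 0.21, and near BCL11B, 519541 bp from the gene end, 36.9 and 9.69, at -1.89 ± 0.25. No knockdown library reached a control library at any of the 3. Of the gained sites, the peak near NRIP1, a nuclear receptor corepressor, had 25.3 to 31.6 (median 26.2) in control and 51.4 to 71.4 (median 64.8) in knockdown libraries, at 1.17 ± 0.18, that near ID2, an inhibitor of helix-loop-helix factors, had 0.82 ± 0.17, and that inside KITLG, the ligand of the KIT receptor, 0.90 ± 0.26.

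The list of developmental transcription factor families held 33 isolated peaks, with 12 lost and 5 gained (median -0.12). Its 338 remaining peaks were lost in 18.3% and gained in 25.4%. Beside SALL3, BARX2 and NR2F2, named among the largest losses, peaks inside ESRRG, an orphan nuclear receptor (-0.62 ± 0.14), near SOX1 (-0.71 ± 0.20) and over TBX18 (-0.37 ± 0.11) were lost. Peaks near IRX5, a homeobox gene (0.52 ± 0.12), inside PRDM6 (0.60 ± 0.15) and near POU2AF2 (1.40 ± 0.22) were gained. POU2AF2 is counted on this list although it encodes an associating factor of POU proteins, and its peak lay 178372 bp from the gene end. At IRX5 the control libraries held 74.9 to 100.1 normalized counts (median 78.1) and the knockdown libraries 114 to 125 (median 117), without overlap.

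Genes for adhesion, synapses and ion channels, which often span long gene-poor stretches, held 153 isolated peaks next to 96 genes. Of these, 48 (31.4%) were lost and 32 (20.9%) gained, with a median log2 fold change of -0.00028. The remaining peaks of this list were lost in 21.5% and gained in 22.8%. The peak near ADGRL3, an adhesion receptor also known as a latrophilin, at chr4:62544214-62545116 had 36.4 to 59.0 in control (median 46.6) and 92.8 to 131 in knockdown libraries (median 118), a gain of 1.25 ± 0.14 (DESeq2, adjusted p = 6.6e-17), whereas that near the potassium channel gene KCNS3 fell from a median of 75.8 to 40.2, at -0.82 ± 0.16. Both were free of overlap. Peaks inside the protocadherin genes PCDH9 (0.45 ± 0.13) and PCDH15 (0.45 ± 0.14) were gained, the latter not without control replicate 6. The 2 sites near NCAM2 with most reads were gained at 0.51 ± 0.15 and 0.37 ± 0.15, and the call of the weaker effect was lost under 8 alternatives. Of the 3 other isolated peaks near NCAM2, 1 was gained (1.24), 1 was lost (-0.50) and 1 was not called (0.20).

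Olfactory receptor genes, which lie in clusters, were nearest to 9 isolated peaks. Of these 5 were lost and 2 gained, and of the 28 remaining peaks of this list 28.6% were lost and 14.3% gained. OR10J1 (-2.14 ± 0.29), OR7G3 (-1.38 ± 0.32), OR4C6 (-1.32 ± 0.27) and OR6P1 (-1.06 ± 0.28) stood beside OR2T6 (1.82 ± 0.30) and OR5P2 (0.80 ± 0.30). The OR5P2 call was lost without control replicate 5, control replicate 6 or knockdown replicate 3. Its log2 fold change was 0.12 in batch 1 and 1.45 in batch 2.

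Isolated peaks that shared a nearest gene did not always change together. The 1483 peaks had 1230 nearest genes, and 194 of these genes were nearest to 2 or more isolated peaks. Of the 194, 25 had both a gained and a lost peak, 24 had 2 or more lost and no gained peak, and 16 had 2 or more gained and no lost peak. Over all isolated peaks 19.4% were gained and 26.7% lost. The same counts are not given for genes with several remaining peaks, so these numbers are descriptions only. Among the 14 genes nearest to at least 4 isolated peaks, chosen by this number after the values were known, ROBO2 was alone in having all 4 of its peaks lost. ROBO2 is an axon guidance receptor, and its peaks on chromosome 3 had log2 fold changes of -1.28, -2.08, -1.52 and -0.91, with mean normalized counts of 38.6, 22.2, 26.7 and 39.7 in control and 16.4, 4.81, 9.16 and 20.5 in knockdown libraries. Near ALCAM, a leukocyte adhesion molecule, 3 of 4 peaks were lost. LRP1B, a large receptor of the LDL receptor family, had 3 lost peaks and 1 gained peak, with log2 fold changes from -1.57 to 1.64, and none of the peaks near CDH9, a cadherin, was lost while 2 of 4 were gained.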

How the data were processed

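RUNX1 ChIP-seq was analyzed in 12 of 20 samples, and the 8 IgG samples were not analyzed here. The authors aligned reads (bowtie2), called peaks (macs2) separately for each batch and genotype, retained those that recurred between batches, merged the genotypes and deposited raw featureCounts counts per merged peak and library, as their methods state. The peak width in bp was deposited as other information. The peaks were therefore called on the libraries that are compared. The methods name a mouse build, and the submitters' processing notes name GRCm38 and GRCh38. The coordinates were taken as GRCh38, because 18.4% of isolated peaks lay within 1 kb of a RefSeq GRCh38.p14 gene end, against 1.89% to 2.36% after shifts of 10 kb to 1 Mb. That gene table gives no strand, so either end of a gene was used.

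The members, gene lists and tests were chosen with earlier results of these data known. DESeq2 1.42.0 in R 4.3.3 fitted all peaks with batch and genotype, with edgeR 4.0.16 (quasi-likelihood) as an alternative, and both were tested on simulated data. Size factors center fold changes, so a global change of binding is not seen. Named were the 8 largest gains and losses (called, mean normalized count of at least 20, genotypes separate within each batch), the 6 strongest peaks, the 4 widest gaps, 3 peaks on either side of the limit and at most 6 called peaks per list by mean count. Promoter peaks were added after the values were seen: the peaks with RUNX cores and the 3 largest gains and losses. Pairs of libraries of 1 group had chi-square values per degree of freedom of 1.29 to 2.24 over peaks with at least 20 reads, so none was a duplicate. Alternatives were other size factors, filters, thresholds, gaps, models and leaving out each library.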

Additional observations from a re-analysis of the deposited data

Results flagged for a closer look

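Of 136 groups of libraries examined, 8 had 1 library far from the others by Dixon's test at 95%, and 6.8 would be flagged by chance, since chance flags about 1 in 20 groups. Of the 8, 7 were normalized counts of named isolated peaks. Control replicate 2 was high near TEAD1 (50.2, others 28.8 to 36.4) and inside ATP10A (60.5, others 31.2 to 41.0). Control replicate 6 was high near IRX5 (100.1, others 74.9 to 81.5), control replicate 1 low near NCAM2 (39.0, others 51.6 to 56.5) and control replicate 4 low inside EGFLAM (171.7, others 198 to 212). Knockdown replicate 5 was high at PTER (48.4, others 32.6 to 38.4) and knockdown replicate 3 near CNTNAP3C (91.4, others 50.7 to 60.6). The 8th was the share of in-peak reads in isolated peaks over 1 kb from a gene end, where control replicate 1 held 2.98% and the other controls 3.35% to 3.41%. No cause was tested for any of them.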

How the results depend on the processing

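Counts of called isolated peaks moved by less than 1.5 times with edgeR, other size factors, no batch term, autosomes alone, an adjusted p under 0.01 and, except in batch 1, without any 1 library. Without 1 library, calls ran from 605 to 655, gains from 247 to 273, losses from 357 to 382, losses over 2-fold from 225 to 234, gains over 2-fold from 126 to 148 and the median log2 fold change from -0.060 to -0.042. Batch 1 calls ran from 17 to 160 and were 470 with edgeR, and batch 2 calls ran from 310 to 401. With at least 10 reads in every library, which by construction drops peaks that are low in 1 genotype, 270 of 844 isolated peaks were called (32.0%, beside 32.2% of all peaks so filtered), 120 gained (22 over 2-fold) and 150 lost (44 over 2-fold), 28.8% lay within 1 kb of a gene end and the median width was 914.5 bp. With a gap over 100000 bp, 1153 of 2530 were called (45.6%), 500 gained (235 over 2-fold) and 653 lost (373 over 2-fold), and the read shares were 7.89% (control) and 7.59% (knockdown). With a gap over 250000 bp the values were 327 of 707 (46.3%), 144 (77), 183 (114), 1.97% and 1.92%, with 15.8% within 1 kb, a median width of 684 bp and a median log2 fold change of -0.029. A fold over 2 left 367 calls, 134 gained and 233 lost. The median log2 fold change was -0.032 with total counts as size factors and -0.019 after centering. With the ends of genes of every kind, 23.3% lay within 1 kb. On autosomes the read shares were 4.33% and 4.13%.

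With the replicate number as a replicate block, 191 isolated peaks were gained and 288 lost. Same-numbered libraries had deviations with correlations of -0.09 to 0.235, the highest for number 1, and number 3 spans both batches. No values for differently numbered libraries stand beside these, so whether the numbers pair libraries was not settled. The sample titles do not state a pairing. Of 62 named peaks, 55 were called and 8 lost the call under some alternative (near AAMDC, where the RSF1 promoter lies, NCAM2, NLGN4Y, OR5P2, PCDH15, RIMS2, RO60 and RUNDC3B). Signs turned after centering on the window for PTER (-0.10), GPAM (-0.052), ADGRB3 (-0.048) and NLGN4Y (-0.57), and for PTER without control replicate 5 (-0.001) or knockdown replicate 5 (-0.031), within a range of -0.031 to 0.135 over the libraries left out. GPAM passed the test with at least 10 reads in every library (0.27) and without knockdown replicate 2 (0.28). Causes were not tested. Depth limits the weakest peaks: for isolated peaks the standard error on the log2 scale had a median of 0.235.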

Other observations

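The isolated peaks of chromosome X were changed less often than those of most other chromosomes. Of 93 isolated peaks there, 12 were gained and 11 lost, and the median log2 fold change was 0.11, against 0.01 in the remaining peaks of the chromosome. The lost share was 11.8% of the isolated and 15.9% of the remaining peaks there. Chromosome 13, on which 71 of 593 peaks were isolated, had 29 isolated peaks lost and 16 gained, while 19.7% of its remaining peaks were lost. On chromosome 4, where 121 isolated peaks were the second most of any chromosome after 134 on chromosome 2, 24 were lost (19.8%, against 19.1% of its remaining peaks) and 27 gained. These chromosomes were picked after their values were seen, and the differences were not tested.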
